A study of Mus musculus with 12 samples.

Results

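The genes described here copy DNA and supply its building blocks. They are 41 mouse genes of origin licensing, origin firing, the replication fork, the polymerases, the sliding clamp, nucleotide supply and chromatin assembly, with the MCM helicase subunits and the ligases left out. They were listed by their roles and not by a cutoff on measured values, although earlier results of these data were known. For each gene the probe set annotated to that symbol alone and of highest mean log2 signal over all 12 arrays was taken. This gave 40 of the 41 genes, since Chaf1a had no probe set of its own in the annotation used and was not analysed here. All 40 were among the 12083 genes tested, out of 18193 genes with such a probe set. A gene was tested where its signal was above the array's median on at least 3 arrays. Of the 40 members, 27 were above that median on all 12 arrays, and the fewest arrays for any member was 6, for Ccne2.

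Affymetrix expression arrays measured RNA of blood-forming stem cells (haematopoietic stem cells, HSCs) that had been sorted from bone marrow by their fluorescence. There were 4 groups of 3 arrays each. Nras GFPhigh and Nras GFP- cells came from mice carrying the oncogenic allele NrasG12D/+. Wild-type GFPhigh and wild-type GFP- cells came from mice with the normal gene. All mice of all groups drank doxycycline for 6 weeks and were followed for 12 weeks after its removal, so that cells which divided little kept a green fluorescent label (GFPhigh, labelled quiescent) and cells which divided more had lost it (GFP-, labelled cycling). The series describes the 3 arrays of a group as biological replicates. The promoter behind the label, the way the Nras allele was switched on, the age of the mice and any pooling of animals are not given in the sources used here.

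DNA replication is prepared in G1 phase and carried out in S phase. The origin recognition complex (Orc1 to Orc6) marks start sites, and Cdc6 and Cdt1 load the MCM helicase there. The kinase Cdc7 with its activator Dbf4 and the factors Cdc45 and GINS then switch the helicase on. Polymerase alpha with primase starts each strand, polymerases delta and epsilon extend it on the clamp Pcna, and ribonucleotide reductase (Rrm1 with Rrm2) makes the deoxynucleotides. Many of these genes are known targets of E2F factors, which the retinoblastoma protein holds back in resting cells.

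Promoter sequences from RefSeq (build GRCm38.p6), each with 250 bases before and 50 after a gene's annotated start, were matched for 33 of the 41 genes, in 39 entries. The letters TTCCCGC, or the variant TTGGCGC, or the variant TTCGCGC, or the variant TTGCCGC, forms of the core of the E2F site, stood on either strand in 20 of the 39 entries (51.3%), against 9.57% of all 32851 promoter entries. The letters CCAAT on either strand stood in 38.5% of the members' entries and in 37.4% of all entries. The letters TTTGAA, or the variant TTCGAA, stood in 17.9% of the members' entries and in 19.2% of all. These matches describe letters, not binding. The 150 bases just before the start are shown for 5 members whose signals are described below, because they hold these letters in different numbers and arrangements. Capitals mark the E2F letters and CCAAT on either strand, and each sequence runs 5′ to 3′ on the gene's own strand.
Rrm1 (chr7:102441545-102441694, plus strand): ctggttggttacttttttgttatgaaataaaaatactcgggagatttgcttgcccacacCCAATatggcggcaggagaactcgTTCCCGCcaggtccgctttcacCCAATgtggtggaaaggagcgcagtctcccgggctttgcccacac
Rrm2 (chr12:24708104-24708253, plus strand): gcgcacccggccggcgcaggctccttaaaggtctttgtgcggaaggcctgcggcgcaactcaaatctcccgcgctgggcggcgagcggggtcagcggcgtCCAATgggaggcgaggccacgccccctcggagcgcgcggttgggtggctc
Cdc6 (chr11:98908001-98908150, plus strand): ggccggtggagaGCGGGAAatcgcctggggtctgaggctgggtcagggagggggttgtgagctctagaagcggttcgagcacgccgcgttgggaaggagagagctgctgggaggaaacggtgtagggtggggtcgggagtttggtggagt
Pola1 (chrX:93632156-93632305, minus strand): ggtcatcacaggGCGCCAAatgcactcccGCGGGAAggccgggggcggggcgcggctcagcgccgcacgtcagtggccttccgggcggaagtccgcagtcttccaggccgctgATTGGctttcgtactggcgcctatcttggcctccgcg
Pcna (chr2:132253181-132253330, minus strand): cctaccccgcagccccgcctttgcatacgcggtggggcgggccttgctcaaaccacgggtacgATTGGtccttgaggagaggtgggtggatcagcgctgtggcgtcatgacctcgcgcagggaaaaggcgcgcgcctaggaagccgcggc
In these windows the E2F letters stood at 2 places before Pola1 and at 1 place before Rrm1 and Cdc6, and CCAAT at 2 places before Rrm1 and at 1 before Rrm2, Pola1 and Pcna. The same windows of Dut, Dbf4, Orc5, Cdt1, Tk1, Timeless and Rfc4, also described below, held neither the E2F letters nor CCAAT. For Orc2, the window of 1 entry held CCAAT and that of another held neither. The shares above were taken over the longer entries of 300 bases, so absence from a window is not absence from the entry.

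The deposited values were scaled by the authors to a trimmed mean of 500 on every array, and the median signal ran from 44 to 129.6 between arrays. Of 14 stem and progenitor markers, 12 were on the array with their own probe set and 10 of these were above the array median on all 12 arrays. Over both genotypes, the log2 difference of GFPhigh minus GFP- cells was below 0 for 5 of these 12 markers and above 0 for 7 (median 0.032). At an unadjusted limma p under 0.05, 2 were lower in GFPhigh cells and 3 higher, against 4.51% and 4.36% of all genes tested. The lower ones, by log2 difference, were Cd34, at -2.27 ± 0.63 (SE), and Flt3, at -2.13 ± 0.97 (SE), both also present on multipotent progenitors. The higher ones were Procr, at 0.96 ± 0.25 (SE), Hlf, at 0.42 ± 0.16 (SE), and Mecom, at 0.41 ± 0.17 (SE), and none of the 5 passed an adjusted p of 0.05. The arrays numbered 3 stood apart in all 4 groups: Xist, which is transcribed from an inactive X chromosome, read 91.8 to 205.1 there and 5773.4 to 11480.7 on the arrays numbered 1 and 2. The Y-linked gene Eif2s3y read 3876.6 to 4544.9 on the arrays numbered 3 and 2.3 to 674.7 on those numbered 1 and 2. The labels do not give the sex of the mice, which by these 2 genes went with the replicate number within every group. The 4 arrays that limma gave a weight under 0.6 were Nras GFPhigh 1 and 2, wild-type GFPhigh 2 and Nras GFP- 1. Summed signals of markers of other cells differed between groups. The 11 granulocyte markers summed to 6018.3 to 57988.1 in Nras GFPhigh cells and 996.2 to 13096.4 in wild-type GFPhigh cells, and to 4309.4 to 5585.1 in Nras GFP- cells and 2534.8 to 13358.3 in wild-type GFP- cells. The 8 endothelial and stromal markers summed to 3162.5 to 5215.2 in Nras GFPhigh cells and 592.9 to 2001.5 in wild-type GFPhigh cells, and to 246.2 to 808.2 in Nras GFP- cells and 874.9 to 1837.9 in wild-type GFP- cells. No marker of either list was at 0 on all arrays of a group, but only 3 values of the whole series were listed at 0. Above the array median on all 12 arrays were 3 of the 11 granulocyte markers and 0 of the 8 endothelial and stromal markers. The part of these marker differences in the results below was not tested.

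The first comparison set label-retaining against label-free cells over both genotypes. Most DNA synthesis genes read lower in GFPhigh than in GFP- cells: 34 of the 40 had a log2 difference below 0, where 49% of all genes tested did. The median of the 40 differences was -0.71, beside 0.018 over all genes tested. No member passed an adjusted p of 0.05 (limma with Benjamini-Hochberg adjustment over 12083 genes), and neither did any other gene, where 545 genes were lower and 527 higher at an unadjusted p under 0.05. At that unadjusted level 13 of the 40 members were lower and 0 higher, against 4.51% and 4.36% of all genes tested. The count of 13 ran from 9 to 15 leaving out 1 array in turn, and was 5 within the arrays numbered 1 and 2. The smallest adjusted p of a member was 0.316. The ratio of 3′ to 5′ signal of Gapdh, a sign of RNA quality that is higher where RNA is more degraded, also moved with the label. It was 7.28, 2.83 and 5.70 on Nras GFPhigh arrays and 4.17, 4.48 and 2.57 on wild-type GFPhigh arrays, against 3.83, 3.51 and 3.32 on Nras GFP- arrays and 3.68, 3.52 and 2.60 on wild-type GFP- arrays. On 4 of the 6 GFPhigh arrays it was above every GFP- array, Nras GFPhigh 1 and wild-type GFPhigh 2 among them, and its part in the result was not tested. In such bulk samples, fewer cells of a type and less RNA per cell cannot be told apart.

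By role, the median difference was -0.68 for the 9 licensing genes (7 below 0), -1.04 for the 8 firing genes (6 below 0), -0.70 for the 9 polymerase genes (9 below 0), -0.57 for the 7 clamp genes (6 below 0) and -0.77 for the 5 nucleotide genes (4 below 0). The fork factor Timeless had -3.05 and the chromatin assembly subunit Chaf1b -0.09. The 6 members above 0 were Tyms (0.88), Orc1 (0.86), Orc4 (0.44), Gins4 (0.22), Cdc45 (0.09) and Pcna (0.02). Pcna was below 0 both with arrays centred on their median and after quantile normalization. Cdc45 was below 0 (-0.08) only with median centring, which moved every gene of this comparison by the same amount, and was 0.07 after quantile normalization.

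**Figure D1:**
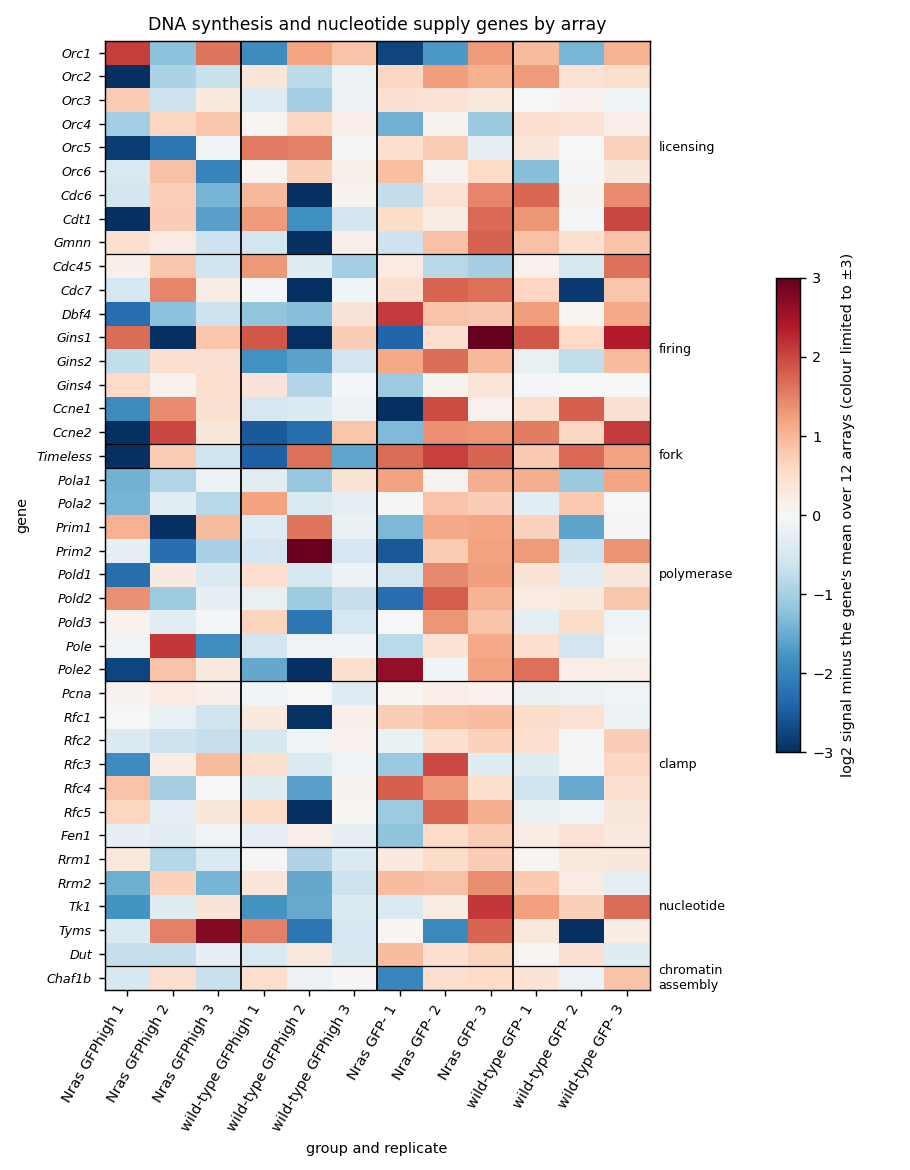
Signal of the 40 genes on the 12 arrays, as log2 deviation from each gene's mean over all arrays, with genes in rows grouped by role and arrays in columns by group; red is above and blue below the mean, and colour ends at 3 either way. The lowest array of a gene was an Nras GFPhigh array for 17 genes and a wild-type GFPhigh array for 14, and the highest was an Nras GFP- array for 22. These counts were not taken over all genes tested.

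Among the licensing genes, Orc2, a subunit of the origin recognition complex, separated the labels completely. Its signal was 116, 486 and 592 in Nras GFPhigh cells and 1216, 551 and 849.6 in wild-type GFPhigh cells. In GFP- cells it read 1459, 2255 and 1990.1 in Nras and 2296, 1275 and 1355 in wild-type. Every GFPhigh array lay below every GFP- array, which held for 0.339% of all genes tested and for no other member. The log2 difference was -1.74 ± 0.47 (SE), with an adjusted p of 0.371. The other probe sets of Orc2 did not show a difference of this size. They gave 0.045 and -0.37 over both genotypes, and -0.12 and -0.14 in Nras. The probe set used gave -1.74 and -2.54 in these comparisons, so the result for Orc2 rests on 1 of its 3 probe sets.

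Cdt1, the loader of the MCM helicase, read 62.1, 1431 and 275 in Nras GFPhigh cells and 2053, 236 and 583 in wild-type GFPhigh cells. The GFP- readings were 1246, 1001 and 2782 in Nras and 2127, 828 and 3428 in wild-type. The lowest readings were GFPhigh arrays, while 1 array of each GFPhigh group lay inside the GFP- range. The difference was -1.93 ± 0.77 (SE) on the log2 scale (adjusted p 0.528), and -1.37 without Nras GFPhigh 1.

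Cdc6, which recruits Cdt1 to the origin complex, read 388, 928 and 217 in Nras GFPhigh cells and 1118, 29.7 and 616 in wild-type GFPhigh cells. GFP- arrays gave 345, 773 and 1572 in Nras and 1894, 611 and 1519 in wild-type. The groups overlapped, and the array at 29.7 was by far the lowest. The difference of -1.47 ± 0.84 (SE) (adjusted p 0.642) was -0.67 without that array, wild-type GFPhigh 2.

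Gmnn (geminin), which binds Cdt1 and keeps origins from being licensed again in the same cycle, read 1377, 1161 and 641 in Nras GFPhigh cells and 672, 60.4 and 1138 in wild-type GFPhigh cells. Without the label, signals were 644, 1797 and 3346 in Nras and 1806, 1394 and 1772 in wild-type. The wild-type groups did not overlap and the Nras groups did. The difference over both genotypes, -1.42 ± 0.68 (SE) (adjusted p 0.578), also rested on wild-type GFPhigh 2, without which it was -0.78.

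Orc5 followed another pattern. Its signal was 72, 115 and 485 in Nras GFPhigh cells and 1521, 1484 and 507 in wild-type GFPhigh cells. In GFP- cells it read 728, 874 and 429 in Nras and 661, 524 and 832 in wild-type. Nras GFPhigh held the lowest readings (72 and 115) and wild-type GFPhigh the highest (1521 and 1484), so the difference over both genotypes averaged opposite directions (-0.68 ± 0.56 (SE), adjusted p 0.74). By the probe sets used, the other subunits Orc1, Orc3, Orc4 and Orc6 had differences between -0.38 and 0.86, each less than 1.5 times its standard error. Over all their probe sets, differences ran from -1.35 to 0.86 for Orc1, from -0.38 to 1.64 for Orc3 and from -0.45 to 0.59 for Orc4.

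Of the firing genes, Dbf4, the activator of the Cdc7 kinase, had the smallest p of all members. Its signal was 97.4, 202 and 312 in Nras GFPhigh cells and 209, 197 and 617 in wild-type GFPhigh cells. The GFP- readings were 2051, 860.3 and 829 in Nras and 1133, 499.7 and 1038 in wild-type. The highest GFPhigh array (617) and the lowest GFP- array (499.7) crossed, and no other pair of arrays did. The difference was -2.07 ± 0.53 (SE) on the log2 scale, a ratio of 0.238 of GFPhigh to GFP- geometric means, with an adjusted p of 0.316. Its 2 probe sets gave -2.07 and -0.91.

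Gins2, a subunit of the GINS complex of the active helicase, read 306, 713 and 699 in Nras GFPhigh cells and 145, 169 and 349 in wild-type GFPhigh cells. GFP- arrays gave 1141, 1646 and 1001 in Nras and 441, 305 and 981 in wild-type. Within each genotype the GFPhigh arrays were the lower ones, apart from wild-type GFPhigh 3, which exceeded wild-type GFP- 2. The difference was -1.26 ± 0.49 (SE) (adjusted p 0.526), and its 2 probe sets gave -1.32 and -1.26. Cdc7, Cdc45, Gins1, Gins4 and the cyclins Ccne1 and Ccne2, which activate Cdk2 at the start of S phase, had differences between -2.02 and 0.22. None of these 6 had an unadjusted p under 0.05.

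Timeless, which steadies the stalled or slowed fork, had the largest difference of the 40 and one of the widest spreads. It read 6.8, 1468 and 569.5 in Nras GFPhigh cells and 159, 2684 and 292 in wild-type GFPhigh cells. Without the label, signals were 2760.2, 3545 and 2864 in Nras and 1474, 2794 and 1997 in wild-type. The lowest GFP- array read 1474, and among GFPhigh arrays only wild-type GFPhigh 2 exceeded it. The difference was -3.05 ± 1.12 (SE) (adjusted p 0.506), and -1.87 without Nras GFPhigh 1, where it read 6.8. Its 2 probe sets gave -3.05 and -1.22 over both genotypes, and -4.09 and -0.97 in Nras, so the size rests on 1 of them.

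By the probe sets used, all 9 polymerase and primase genes had differences below 0, from -1.93 to -0.012. Other probe sets of Pola2, Prim2 and Pold3 lay above 0, at up to 0.20, 0.54 and 0.0086. Pola1, the catalytic subunit of polymerase alpha, read 276, 404 and 663 in Nras GFPhigh cells and 586, 336 and 988 in wild-type GFPhigh cells. In GFP- cells it read 1726, 799 and 1594 in Nras and 1572, 341 and 1683 in wild-type. The Nras groups did not overlap, while wild-type GFP- 2 read as low as the GFPhigh arrays. The difference was -1.19 ± 0.53 (SE) (adjusted p 0.551). Pole2, a subunit of polymerase epsilon, was the other polymerase gene with an unadjusted p under 0.05, at -1.93 ± 0.81 (SE) (adjusted p 0.55). Prim1, the catalytic primase subunit, had the smallest difference, -0.012 ± 0.76 (SE), and its 2 probe sets gave -2.19 and -0.012.

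In the clamp group, Pcna itself did not separate the labels. Its signal was 7948, 8708 and 8184 in Nras GFPhigh cells and 6975, 7406 and 5632 in wild-type GFPhigh cells. The GFP- readings were 7694, 8493 and 8054 in Nras and 6397, 6520.1 and 6778 in wild-type. In the deposited scaling the Nras arrays were all above the wild-type arrays, whichever the label. The share of all genes tested with this order was not taken. After quantile normalization the Nras difference of Pcna in GFPhigh cells was -0.0024. The label difference was 0.025 ± 0.097 (SE), with a 95% interval of -0.19 to 0.23 and an adjusted p of 0.958. Its sign turned with scaling, to -0.14 with arrays centred on their median and to -0.16 after quantile normalization. On the log2 scale its SD within groups was 0.043 to 0.21, and no other member had a largest group SD as small.

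Rfc2, a subunit of the clamp loader, read 2096, 1823 and 1739.6 in Nras GFPhigh cells and 2019, 2605 and 3059 in wild-type GFPhigh cells. GFP- arrays gave 2454, 3884 and 4543 in Nras and 3987, 2714 and 4667 in wild-type. The Nras groups did not overlap, and in wild-type only GFPhigh 3 exceeded the lowest GFP- array. The difference was -0.73 ± 0.24 (SE) (adjusted p 0.454), and -1.62 to -0.73 over its 3 probe sets. The large subunit Rfc1 had -1.12 ± 0.51 (SE) (adjusted p 0.56), and -1.12 to -0.24 over its 3 probe sets. Rfc3, Rfc4, Rfc5 and the flap nuclease Fen1, which trims the ends of lagging-strand fragments, lay between -0.67 and -0.25.

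Among the nucleotide genes, Dut and Rrm1 had the smallest standard errors (0.21 and 0.22) and Tyms the largest (0.93). Dut, which breaks down dUTP so that uracil is kept out of DNA, read 2201, 2201 and 3019.9 in Nras GFPhigh cells and 2613, 4451 and 2569 in wild-type GFPhigh cells. Without the label, signals were 6767, 5098 and 5697 in Nras and 3759.7, 4918 and 2799.5 in wild-type. The Nras groups were widely apart and the wild-type groups overlapped. The difference over both genotypes was -0.76 ± 0.21 (SE) (adjusted p 0.416), and its 2 probe sets gave -0.78 and -0.76.

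Rrm1, the large subunit of ribonucleotide reductase, read 5190.2, 2282 and 3029 in Nras GFPhigh cells and 4249.8, 2226 and 3093 in wild-type GFPhigh cells. In GFP- cells it read 5131, 6099.9 and 6983 in Nras and 4373, 5143 and 5248 in wild-type. Wild-type groups did not overlap, and in Nras the array GFPhigh 1 was just above GFP- 1. The difference was -0.77 ± 0.22 (SE) (adjusted p 0.416), but its 3 probe sets ran from -0.84 to 1.07.

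Rrm2, the small subunit, whose level limits the enzyme in the cycle, read 374, 1665 and 394 in Nras GFPhigh cells and 1313, 356 and 655 in wild-type GFPhigh cells. The GFP- readings were 1942, 1879 and 2711 in Nras and 1784, 1218 and 856 in wild-type. Nras GFPhigh lay below Nras GFP- on all arrays, and in wild-type only GFPhigh 1 was inside the GFP- range. The difference was -1.32 ± 0.49 (SE) (adjusted p 0.509), and -1.98 to -1.32 over its 3 probe sets.

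Tk1, the thymidine salvage kinase, was the dimmest of the genes given in full. It read 42.8, 116 and 194 in Nras GFPhigh cells and 42.8, 51.7 and 111 in wild-type GFPhigh cells. GFP- arrays gave 109.6, 174 and 642 in Nras and 349, 243 and 471 in wild-type. Wild-type groups were apart and Nras groups overlapped. The difference was -1.84 ± 0.62 (SE) (adjusted p 0.471), and Tk1 was above the array median on only 7 arrays. Tyms, which makes thymidylate, was the exception of this role at 0.88 ± 0.93 (SE) (adjusted p 0.816), with differences of -2.28 to 0.88 over its 4 probe sets.

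**Figure D2:**
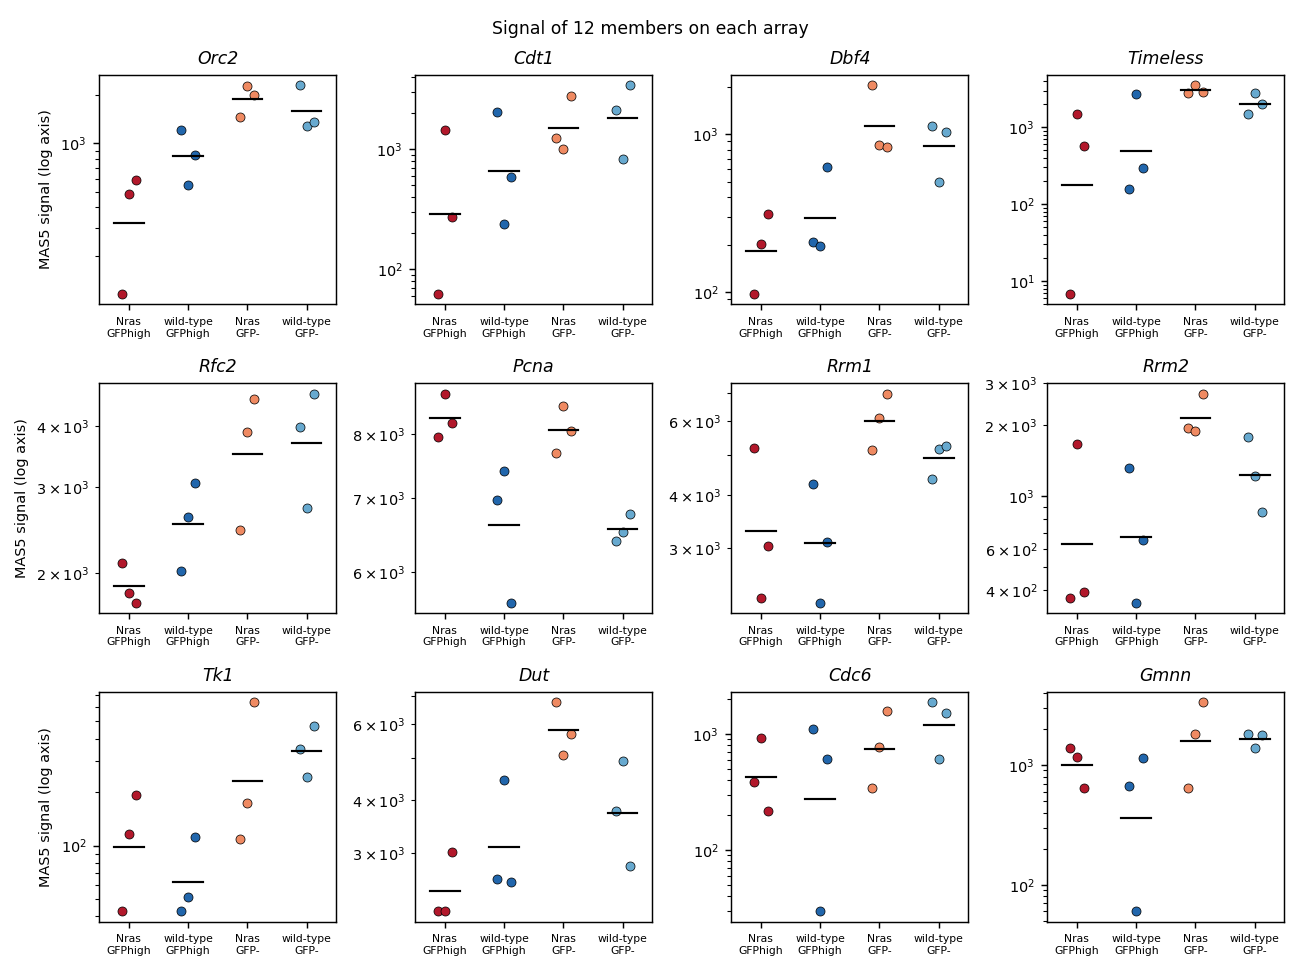
Deposited signal (log axis) of 12 of the genes on each of the 12 arrays, by group, with 1 point per array and a bar at each group's geometric mean; each panel has its own range. By the probe set used, Orc2 has every GFPhigh array below every GFP- array. Pcna has every Nras array above every wild-type array, an order whose share over all genes tested was not taken.

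Over all 83 probe sets of the members, 11 members had a single probe set. Of the 29 with several, 18 had every probe set below 0 and 11 had probe sets on both sides of 0, and none had every probe set above 0. Probe sets whose names end in x_at or s_at can share sequence with other transcripts. Those of Rrm2, Rfc2, Rfc4, Fen1 and Pold1 used here are of these kinds.

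The label effect was then taken within each genotype. In Nras cells 32 of the 40 members were below 0 (46.8% of all genes tested), with a median of -0.91 beside 0.082 over all genes. At an unadjusted p under 0.05, 10 were lower and 0 higher, against 5.97% and 6.2% of all genes tested. In wild-type cells 33 were below 0 (52.2% of all genes tested), with a median of -0.61 beside -0.031 over all genes. At the same level 2 were lower and 0 higher, against 1.15% and 1.05%. No gene passed the adjusted p in either genotype by limma, where 721 genes were lower and 749 higher in Nras, and 139 lower and 127 higher in wild-type, at an unadjusted p under 0.05. The members' count of 10 in Nras was 5 without Nras GFPhigh 1, 5 without Nras GFP- 3 and 6 without Nras GFP- 2. The count of 2 in wild-type ran from 0 without wild-type GFP- 3 to 6 without wild-type GFPhigh 3.

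Groups without overlap gave a like count in both genotypes. In Nras, 10 members had all 3 GFPhigh arrays below all 3 GFP- arrays: Orc2, Dbf4, Gins2, Timeless, Pola1, Pola2, Rfc1, Rfc2, Rrm2 and Dut, against 6.21% of all genes tested. In wild-type, 8 members did: Orc2, Orc3, Gmnn, Ccne1, Pold2, Fen1, Rrm1 and Tk1, against 5.81%. Orc2 was in both lists. No member had the reverse order in either genotype, while 6.7% of all genes tested did in Nras and 5.3% in wild-type.

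The sizes in Nras were -1.25 ± 0.30 (SE) for Dut (adjusted p 0.188), -2.54 ± 0.66 (SE) for Orc2 (adjusted p 0.205) and -2.63 ± 0.75 (SE) for Dbf4 (adjusted p 0.247). In wild-type the same genes had -0.26 ± 0.30 (SE), -0.93 ± 0.66 (SE) and -1.51 ± 0.75 (SE). Tk1 and Gmnn were the members of unadjusted p under 0.05 in wild-type, at -2.45 ± 0.88 (SE) and -2.20 ± 0.96 (SE), beside -1.23 ± 0.88 (SE) and -0.64 ± 0.96 (SE) in Nras. Without wild-type GFPhigh 2 the wild-type value of Gmnn was -0.91. Without Nras GFPhigh 1 the Nras values of Timeless and Cdt1 were -1.73 and -1.27, beside -4.09 ± 1.58 (SE) and -2.38 ± 1.09 (SE) with it.

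By role, the 9 polymerase genes had a median of -0.98 in Nras, all 9 below 0, and -0.22 in wild-type, 6 below 0. The medians in Nras were -1.23 for the nucleotide genes, -0.96 for the firing genes, -0.81 for the licensing genes and -0.40 for the clamp genes. In wild-type they were -0.67 for the nucleotide genes, -1.30 for the firing genes, -0.53 for the licensing genes and -0.44 for the clamp genes. Across the 40 members the Nras and wild-type differences had a Pearson r of 0.38 and a Spearman rho of 0.34, a description over genes that share the same 12 arrays, and r was 0.15 over all genes tested. In both genotypes 27 members were below 0, against 27.2% of all genes tested, 2 were above 0, and 11 had opposite signs.

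**Figure D3:**
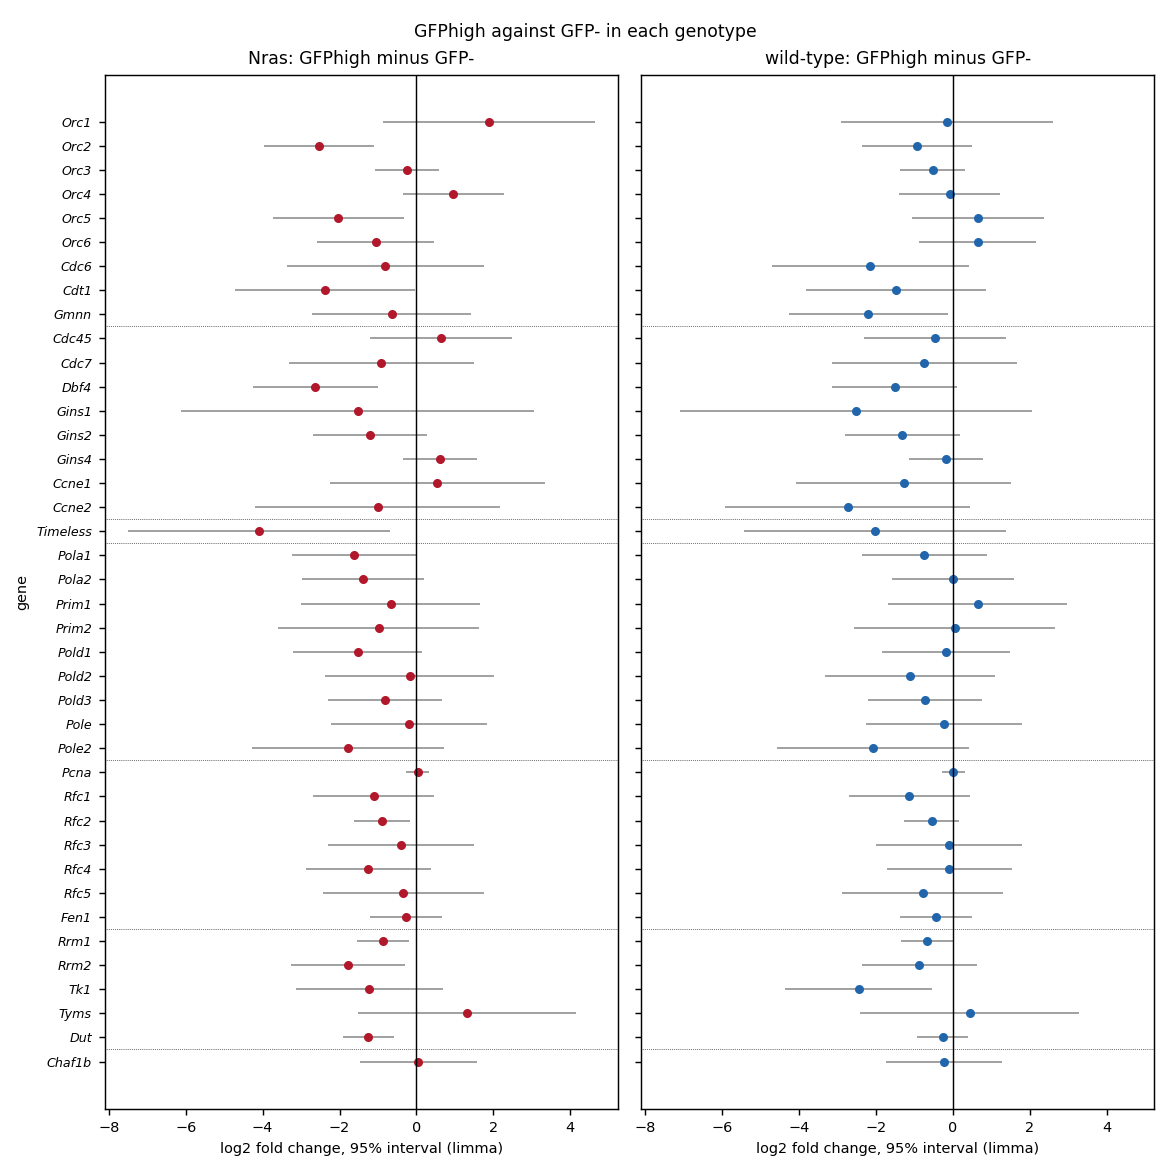
Log2 difference of GFPhigh minus GFP- cells for each of the 40 genes with its 95% interval, in Nras cells (left) and in wild-type cells (right), with genes in rows, dotted lines between roles and a vertical line at 0. Of the 40 points, 32 lie left of 0 in Nras and 33 in wild-type, and the intervals of Gins1 and Timeless are the widest.

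The difference between the 2 label effects was tested as an interaction, Nras effect of the label minus wild-type effect of the label. The members were spread on both sides: 19 of the 40 were below 0 (46.1% of all genes tested) and the median was 0.013 beside 0.11 over all genes. Orc5 (-2.69 ± 1.12 (SE)) and Dut (-0.98 ± 0.43 (SE)) were lower at an unadjusted p under 0.05, against 2.25% of all genes tested, and 0 members were higher, against 2.43%. Both had an adjusted p of 0.956, and no gene passed by limma, where 272 genes were lower and 294 higher at the unadjusted level. The polymerase median of the interaction was -0.89 and the firing median 0.89. The members' median depended on the handling of the arrays, at -0.63 with arrays centred on their median and -0.61 with array weights. Median centring moved every gene by the same amount, and the median of all genes tested from 0.11 to -0.53. That shift therefore does not set the members apart.

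Next, Nras cells were set against wild-type cells of the same label. In GFP- cells the members' median was 0.29 and 23 of 40 were above 0, beside a median of -0.17 over all genes, 59.4% of which were below 0. At an unadjusted p under 0.05, 2 members were higher and 0 lower, against 0.968% and 3.42% of all genes tested. Nras GFP- arrays all lay above wild-type GFP- arrays for Orc3, Gins2, Pcna, Rfc1, Rfc4, Rrm2 and Dut, 7 of 40 against 4.07% of all genes tested, and all below for Orc4, 1 of 40 against 6.72%. No member passed the adjusted p of 0.05 (smallest 0.983), and no gene did by limma, with 117 genes higher and 413 lower at the unadjusted level. The members' median was -0.028 with probe sets averaged per gene. The count of 2 was 0 without Nras GFP- 2 or without wild-type GFP- 1.

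Rfc4, a small subunit of the clamp loader, had the largest Nras difference among these 7. It read 2393, 1698 and 986 in Nras GFP- cells, against 449, 242 and 959.9 in wild-type GFP- cells. The groups lay just apart, at 985.5 and 959.9. The difference was 1.75 ± 0.75 (SE) (adjusted p 0.983). In GFPhigh cells Rfc4 read 1242, 345 and 692 in Nras and 529.6, 222 and 736 in wild-type, and the groups overlapped (0.59 ± 0.75 (SE)). Its label difference was -1.25 ± 0.75 (SE) in Nras and -0.091 ± 0.75 (SE) in wild-type. The second probe set of Rfc4 gave 1.09 for Nras against wild-type in GFP- cells, but -3.33 in GFPhigh cells and -4.29 for the label in Nras.

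Pcna had small differences of narrow spread, 0.30 ± 0.14 (SE) in GFP- cells (adjusted p 0.983) and 0.32 ± 0.14 (SE) in GFPhigh cells (adjusted p 0.586). The second was -0.0024 after quantile normalization. Gins2 had 1.28 ± 0.69 (SE), Rrm2 0.80 ± 0.69 (SE) and Dut 0.64 ± 0.30 (SE) in GFP- cells. Over their probe sets this difference ran from 0.62 to 1.28 for Gins2, from -0.55 to 0.80 for Rrm2 and from -1.52 to 0.64 for Dut, so its sign turned with the probe set for Rrm2 and Dut. It also turned for Orc3 (-2.02 to 0.38) and Rfc1 (-0.017 to 1.28). By role the medians in GFP- cells were 0.64 for the nucleotide genes (4 of 5 above 0), 0.43 for the polymerase genes (7 of 9), 0.30 for the clamp genes (5 of 7), -0.07 for the licensing genes (3 of 9) and -0.58 for the firing genes (3 of 8).

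In GFPhigh cells 21 of the 40 members were higher in Nras and 19 lower, where 53.9% of all genes tested were lower. The median was 0.13, beside -0.09 over all genes. Orc5 was the member lower at an unadjusted p under 0.05 (against 5.12% of all genes tested) and Pcna the member higher (against 3.17%). Their arrays were apart as well, 1 member in each direction against 7.37% lower and 5.12% higher. Orc5 had -2.72 ± 0.79 (SE), with an adjusted p of 0.413. No gene passed the adjusted p by limma, with 619 lower and 383 higher at the unadjusted level.

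As a summary of an array, the median over the 40 members of the deviation from each gene's mean was taken. It was -0.48, -0.04 and -0.14 on the Nras GFPhigh arrays and -0.05, -0.89 and -0.14 on the wild-type GFPhigh arrays. On GFP- arrays it was 0.02, 0.66 and 1.01 in Nras and 0.48, 0.05 and 0.50 in wild-type. Every GFPhigh array was below every GFP- array, with Nras GFPhigh 2 and Nras GFP- 1 closest to each other. The same median over all genes tested ran from -0.20 to 0.20. Group means were -0.22 ± 0.23 in Nras GFPhigh, -0.36 ± 0.46 in wild-type GFPhigh, 0.56 ± 0.50 in Nras GFP- and 0.34 ± 0.26 in wild-type GFP- (SD, n = 3 each).

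**Figure D4:**
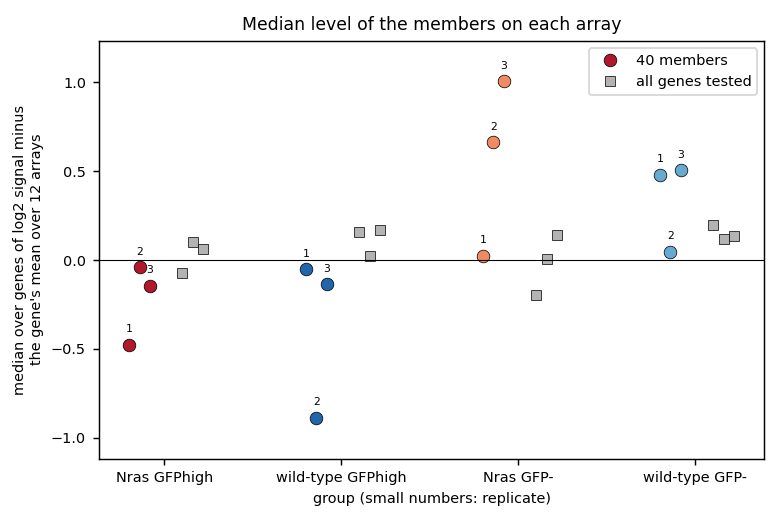
Median log2 deviation of the 40 genes from their means on each of the 12 arrays, by group, as circles with the replicate number above, and the same median over all genes tested as grey squares. The GFPhigh arrays lie between -0.89 and -0.04 and the GFP- arrays between 0.02 and 1.01.

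The lowest array of a member was most often Nras GFPhigh 1 (12 members), wild-type GFPhigh 2 (11) or Nras GFP- 1 (8). For 33 of the 40 members it was 1 of the 4 arrays of weight under 0.6. The highest array was in Nras GFP- for 22 members, in Nras GFPhigh for 7, in wild-type GFP- for 7 and in wild-type GFPhigh for 4. These counts of lowest and highest arrays were not taken over all genes tested, so they do not set the members apart from other genes. The members' median SD within a group was 1.02 in Nras GFPhigh, 0.90 in wild-type GFPhigh, 0.78 in Nras GFP- and 0.52 in wild-type GFP-. Over all genes it was 1.0 in Nras GFPhigh, 0.70 in wild-type GFPhigh, 0.90 in Nras GFP- and 0.55 in wild-type GFP-. Within the arrays numbered 1 and 2 the members' median label difference over both genotypes was -0.65, and on those numbered 3 it was -1.0. In Nras it was -0.74 on the arrays numbered 1 and 2 and -1.24 on those numbered 3, and in wild-type it was -0.63 on each.

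Genes of the same pathways outside the 40 were described by lists named with earlier results of these data known. Of 27 other fork and initiation factors, 25 were below 0 for the label over both genotypes, against 49% of all genes tested, with a median of -0.74. At an unadjusted p under 0.05, 8 were lower, against 4.51% of all genes tested. They had a median of -0.79 in Nras (26 below 0, against 46.8% of all genes tested) and of -0.58 in wild-type (23 below 0, against 52.2%). Those of smallest p were Wdhd1, a scaffold that couples helicase and polymerase alpha, at -2.18 ± 0.61 (SE), Recql4, a helicase of initiation, at -2.99 ± 0.92 (SE), and Topbp1, an initiation and checkpoint scaffold, at -1.47 ± 0.48 (SE). For the Nras effect 21 of the 27 were lower in GFPhigh cells (median -0.82), against 53.9% of all genes tested, and 16 in GFP- cells (median -0.22), against 59.4%.

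Of 27 other genes of nucleotide and folate supply, 25 were on the array and tested, and 19 were below 0 for the label over both genotypes (median -0.42), against 49% of all genes tested. At an unadjusted p under 0.05, 1 was lower, Mthfd1 of folate metabolism at -1.11 ± 0.45 (SE), and 1 higher, the mitochondrial thymidine kinase Tk2 at 1.63 ± 0.73 (SE). These 2 calls among 25 genes lay close to the shares over all genes tested, 4.51% lower and 4.36% higher. In Nras 17 were below 0 (median -0.74) and in wild-type 18 (median -0.22). Of 7 tested genes that degrade nucleotides or form the stress-induced reductase, 5 were above 0 and 2 below (median 0.056). Of all genes tested, 49% were below 0. Those above 0 included Rrm2b, the reductase subunit used outside S phase, at 0.72 ± 0.44 (SE), and Upp1, a uridine phosphorylase, at 1.14 ± 0.57 (SE). Nt5c and Nt5m, also above 0, lay close to it at 0.056 and 0.015. Only the dCTP pyrophosphatase Dctpp1, which was lower at -2.58 ± 0.87 (SE), had an unadjusted limma p under 0.05. None of these genes passed an adjusted p of 0.05.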

How the data were processed

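Labelled cRNA from 2 ug of total RNA of each of the 12 samples was hybridised to Affymetrix arrays, per the labels' protocols. The deposited intensity values (signals) came from the MAS5 algorithm, per the submitters' processing notes; they were on a linear scale, with a trimmed mean (2% at each end) of 500 on every array, and 3 values were listed at 0. Build and further steps are not given in the sources used here. Of 45101 probe sets, 34945 named 1 symbol in the platform annotation, 932 several and 9160 none, and 64 controls were left out.

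From these, log2 of the signal (0 set to 0.1) was fitted in R 4.3.3 with limma 3.58.1: 1 mean per group over all 12 arrays, empirical Bayes moderation with an intensity trend, and Benjamini-Hochberg adjustment over 12083 genes in each of 6 comparisons, with a threshold of 0.05. A value above its array's median on at least 3 arrays kept a gene. Where a gene had several probe sets, the brightest on average was used. The precision rests on 3 arrays per group. Values in every array are given for Pcna, Rrm2, Tk1 and Cdc6, for members of unadjusted p under 0.05 in any comparison (at most 10 of smallest p in each) and for members whose labels did not overlap; Pole2 and Rfc1, outside this rule, are named with their fit, as are members described by range and the markers Flt3 and Mecom, chosen after their values were seen. The script was tested on simulated data. The members and lists were chosen with earlier results of these data known. Alternatives covered scaling, filter, pseudocount, probe set choice, array weights, replicate block, left-out arrays and the arrays numbered 3 alone, the last chosen after seeing the data.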

Additional observations from a re-analysis of the deposited data

How the results depend on the processing

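The members' median label difference kept its sign under every alternative run over both genotypes, in Nras and in wild-type. Leaving out 1 array in turn, it ran from -0.97 to -0.57 over both genotypes, from -1.18 to -0.62 in Nras and from -0.83 to -0.33 in wild-type. The median of the Nras effect ran from -0.12 to 0.22 in GFPhigh cells and from 0.012 to 0.38 in GFP- cells, and that of the interaction from -0.47 to 0.13. With arrays centred on their median, the medians were -1.39 for the label in Nras, 0.90 for the Nras effect in GFP- cells and -0.63 for the interaction; that scaling moved the median of all genes tested to -0.41, 0.43 and -0.53 in these, and to -0.15 for the label over both genotypes, where 34 members stayed below it. The interaction's median was also -0.61 with array weights, -0.67 without the 4 arrays of weight under 0.6 and -0.45 on the samples numbered 3 alone. The cause was not tested.

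No gene passed as reported. For the label over both genotypes 8 genes passed with array weights, 1 without the filter, 2 with median centring, 4 with probe sets averaged per gene, 4 with a pseudocount at the 25th percentile, 6 with a pseudocount of 100, 1 without the intensity trend, 5 at an adjusted p under 0.1 and 3 without the arrays of weight under 0.6. In wild-type 4 passed with array weights. In Nras 3 passed with median centring and 4 without the arrays of low weight. Leaving out 1 array gave 0 to 16 genes over both genotypes (16 without Nras GFPhigh 3), 0 to 161 in Nras (161 without Nras GFPhigh 3) and 0 in wild-type. For the Nras effect it gave 0 to 17 in GFPhigh cells (17 without Nras GFPhigh 3) and 0 to 8 in GFP- cells (8 without Nras GFP- 3), and for the interaction 0 to 1 (1 without wild-type GFPhigh 2). None of the 16 members given by array passed under any alternative (lowest adjusted p 0.0605), and 14 of them kept their direction over both genotypes in each, the exceptions being Pcna and Orc5.

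Samples of different groups share replicate numbers. The 18 correlations of same-numbered samples' deviations from group means ran from -0.044 to 0.15, and 11 of 12 arrays correlated best with an array of their own number. The main fit did not use the numbers as pairs or as a block, and the small size of these correlations does not show that the arrays of a number are unrelated. With the replicate number as a block the members' medians were the same (-0.71 for the label over both genotypes), 0 genes passed in each comparison, and 12 members were lower at an unadjusted p under 0.05 over both genotypes. With 3 arrays per group and values down to the array's dim end, differences in dim members such as Ccne2 and Tk1 were measured with little precision.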
